A study of Mus musculus with 4 samples.

Results

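The constitutive proteasome was followed in mouse liver through the probes of an Illumina bead array whose platform gene symbol was Psma, Psmb, Psmc or Psmd followed by a number, leaving out Psmb8, Psmb9 and Psmb10. The rule took 65 probes of 45281, which belong to 36 genes of 19057 with a named probe. Of these genes, 16 encode the core particle (26 probes) and 20 the regulatory particle or its chaperones (39 probes). The livers came from Med1fl/fl mice on a C57BL6/J background, aged 5.5 weeks and injected into the tail vein with Ad-His-Med1, an adenovirus that expresses Med1, or with Ad-LacZ, which expresses beta-galactosidase. All 4 groups share the floxed genotype and an adenovirus, no group without virus is among them, and they differ in the virus and in the time of killing, 3 or 5 days after injection. Each group has 1 array, the labels do not say how many livers it stands for, and differences between arrays therefore have no replicate check.

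The proteasome is the protease that degrades proteins tagged with ubiquitin. Its core particle is a stack of alpha rings (Psma genes), which gate the chamber, around beta rings (Psmb genes), which hold the cutting sites. The regulatory particle caps the core. Its base has a ring of ATPases (Psmc genes) that unfold the substrate and non-ATPase subunits that receive ubiquitin, and its lid removes the ubiquitin chain. In liver the complex turns over both normal and damaged proteins, and in inflammation beta subunits induced by interferon replace the constitutive cutting subunits.

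The promoters of 4 members are shown because these genes carry the results below. Psmb6 is a cutting subunit of the core, and Psmd6 and Psmd14 are lid subunits whose detected probes all read low on 1 control array. Psmd9 was the member at least 1.5-fold higher with Ad-Med1 on both days by its brighter probe, while its other probe was lower on both. Each runs from 250 bases before to 50 after the annotated start, 5′ to 3′ on the strand of the gene, from RefSeq on GRCm38.p6: chr11:70525107-70525406 on the plus strand, chr14:14120896-14121195 on the minus strand, chr2:61711444-61711743 on the plus strand and chr5:123227940-123228239 on the plus strand. Capitals mark the core of the antioxidant response element, TGACNNNGC, in Psmb6 and Psmd9, and the CCAAT box in Psmd14, where a pair of matches on opposite strands overlap.
Psmb6: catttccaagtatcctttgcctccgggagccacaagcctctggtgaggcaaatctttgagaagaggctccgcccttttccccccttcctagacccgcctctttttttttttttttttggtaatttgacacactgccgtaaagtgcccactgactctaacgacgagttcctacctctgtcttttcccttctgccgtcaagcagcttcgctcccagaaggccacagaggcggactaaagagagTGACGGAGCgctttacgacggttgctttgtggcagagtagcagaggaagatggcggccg
Psmd6: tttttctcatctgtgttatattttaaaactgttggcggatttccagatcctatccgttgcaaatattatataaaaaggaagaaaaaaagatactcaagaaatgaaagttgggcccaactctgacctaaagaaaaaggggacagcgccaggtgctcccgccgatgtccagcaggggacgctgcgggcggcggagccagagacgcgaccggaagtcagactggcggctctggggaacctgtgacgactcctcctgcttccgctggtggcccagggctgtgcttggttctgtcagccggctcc
Psmd14: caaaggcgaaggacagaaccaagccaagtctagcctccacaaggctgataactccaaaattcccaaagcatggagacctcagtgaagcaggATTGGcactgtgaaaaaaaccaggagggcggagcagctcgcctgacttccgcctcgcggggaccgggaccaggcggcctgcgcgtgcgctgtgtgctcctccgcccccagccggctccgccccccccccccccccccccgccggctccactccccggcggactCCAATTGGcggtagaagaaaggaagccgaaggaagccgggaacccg
Psmd9: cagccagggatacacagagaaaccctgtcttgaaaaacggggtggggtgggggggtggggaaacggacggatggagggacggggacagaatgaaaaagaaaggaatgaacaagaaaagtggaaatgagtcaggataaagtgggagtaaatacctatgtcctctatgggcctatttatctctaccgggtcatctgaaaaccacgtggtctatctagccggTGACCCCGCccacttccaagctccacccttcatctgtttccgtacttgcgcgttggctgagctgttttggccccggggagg
On either strand, TGACNNNGC stood in 5 of the 31 promoters found for 29 members (16.1%), those of Psmb5, Psmb6, Psmc6, Psmd9 and Psmd12, against 12.4% of 32851 promoters of the same length. CCAAT stood in 12 of the 31 (38.7%), against 37.4% of all promoters. By particle, CCAAT was found in 7 of 13 core promoters and 5 of 18 regulatory promoters. These matches describe letters in a window and do not locate a bound site.

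The targeted gene read higher where the labels place it, by amounts that differed between its detected probes. Med1 probe ILMN_2658227 read 11.16 at day 3 and 12.22 at day 5 with Ad-Med1, and with Ad-LacZ this probe was undetected at each time. Med1 was nevertheless detected on both Ad-LacZ arrays by other probes. At day 3 and day 5, ILMN_1220563 read 7.98 and 9.25 with Ad-LacZ and 9.97 and 9.45 with Ad-Med1. ILMN_3106388 read 7.27 and 7.47 with Ad-LacZ and 9.35 and 9.66 with Ad-Med1. Probes ILMN_1222371 and ILMN_2695175 were undetected on every array. Here and throughout, a signal is a background-corrected, quantile-normalized log2 probe signal, and a difference is Ad-Med1 minus Ad-LacZ. Liver identity was clear from Ttr, Apoa1, Apoa2, Apoc3 and Ahsg, which read at least 15.00 on every array. A dim probe did not show that a gene was silent, since the probe of Alb, the main plasma protein of hepatocytes, peaked at 7.59 and that of Fgb was not detected on any array. The Ad-LacZ day 3 array was the dimmest before normalization (mean intensity 350.2 against 475 to 968) and stood apart in many single probes. Of 16767 probes detected on at least 1 array, 1530 (9.13%) read over 1 log2 unit below all other arrays there, against 0.704% on Ad-Med1 day 3, 0.328% on Ad-Med1 day 5 and 1.29% on Ad-LacZ day 5. The day 3 arrays also differed in sex-linked transcripts. Of the day 3 pair, only the Ad-Med1 array held detectable Xist and only the Ad-LacZ array Eif2s3y, so that sex and virus cannot be told apart at day 3. At day 5 each array held Xist, and Eif2s3y was detected with Ad-Med1 (10.54) but not with Ad-LacZ. Sex and virus therefore cannot be told apart there either. Of the Ad-LacZ arrays, day 3 held Eif2s3y without Xist and day 5 held Xist without Eif2s3y. Exchanging these arrays as controls, or comparing them over time, exchanges these transcripts as well. Blood and immune cell markers differed as well. The summed linear signal of 7 erythroid markers was 4528 on Ad-Med1 day 3 and 55001 to 78696 on the other arrays. That of 11 macrophage markers was 3086 against 8085 to 16712. Of the 6 tested erythroid markers, Tfrc alone was higher with Ad-Med1 at day 3 (10.39 against 9.28), and Slc4a1 was undetected on both day 3 arrays. Neutrophil markers (9 genes) summed to 4166 and 6945 with Ad-Med1 at day 3 and day 5 and to 890 and 1588 with Ad-LacZ, with Ngp, Camp, Ltf and Mpo undetected on both Ad-LacZ arrays. Their part in the differences below was not tested.

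Most subunits differed little between the viruses. Of the 36 genes, 31 were detected (detection p under 0.01) on at least 1 array by the probe that stands for the gene, its brightest, and could be tested; they are 12 core and 19 regulatory genes. At day 3, 23 of the 31 lay within 1.5-fold of Ad-LacZ, against 50.2% of all 9566 genes tested, and at day 5 27 of the 31, against 60.5%. The median difference of the members was 0.01 at day 3 and 0.08 at day 5, beside medians of -0.03 and 0.07 over all genes. With virus and day as terms, limma called no member for virus, and none of the 9566 genes, at an adjusted p under 0.05 (0%). Its smallest adjusted p for virus over all genes was 0.366. The neutrophil marker S100a9 had that limma value too, although it was higher by 2.56 at day 3 and 2.50 at day 5. The lack of calls therefore does not show that the members differed little. At an unadjusted p under 0.05 the fit held 1 member, Psmd9, and 1295 genes in all (13.5%). Calls depended on the scaling of the arrays. When they were scaled to a common median, 2 members were called among 19.5% of all genes. With only each array median taken off the log2 of the deposited values, 18 members were called among 52.4%. In those fits the median virus effect of all genes was itself 1.01 and 0.89. Without the Ad-LacZ day 5 array and without a day term, 2 members were called among 4.32%. The day term called no member and no gene either; at an unadjusted p under 0.05 it held no member and 194 genes (2.03%). These counts rest on the measured signals, of members and of all genes alike, whether detected or not. At least 2-fold higher by that measure were 4 members at day 3 (background 16.7%) and 2 at day 5 (background 9.95%). They were Psmd6, Psmd9 and Psmd14 at day 3 and Psmd9 at day 5, with Psmc6 (day 3) and Psma8 (day 5) only by setting a dim signal against an undetected one. The bound for Psmc6 is 1.28-fold, and none can be given for Psma8. The median range over the 4 arrays was 0.48 for the members and 0.94 for all genes, which were not matched to the members for brightness.

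**Figure D1:**
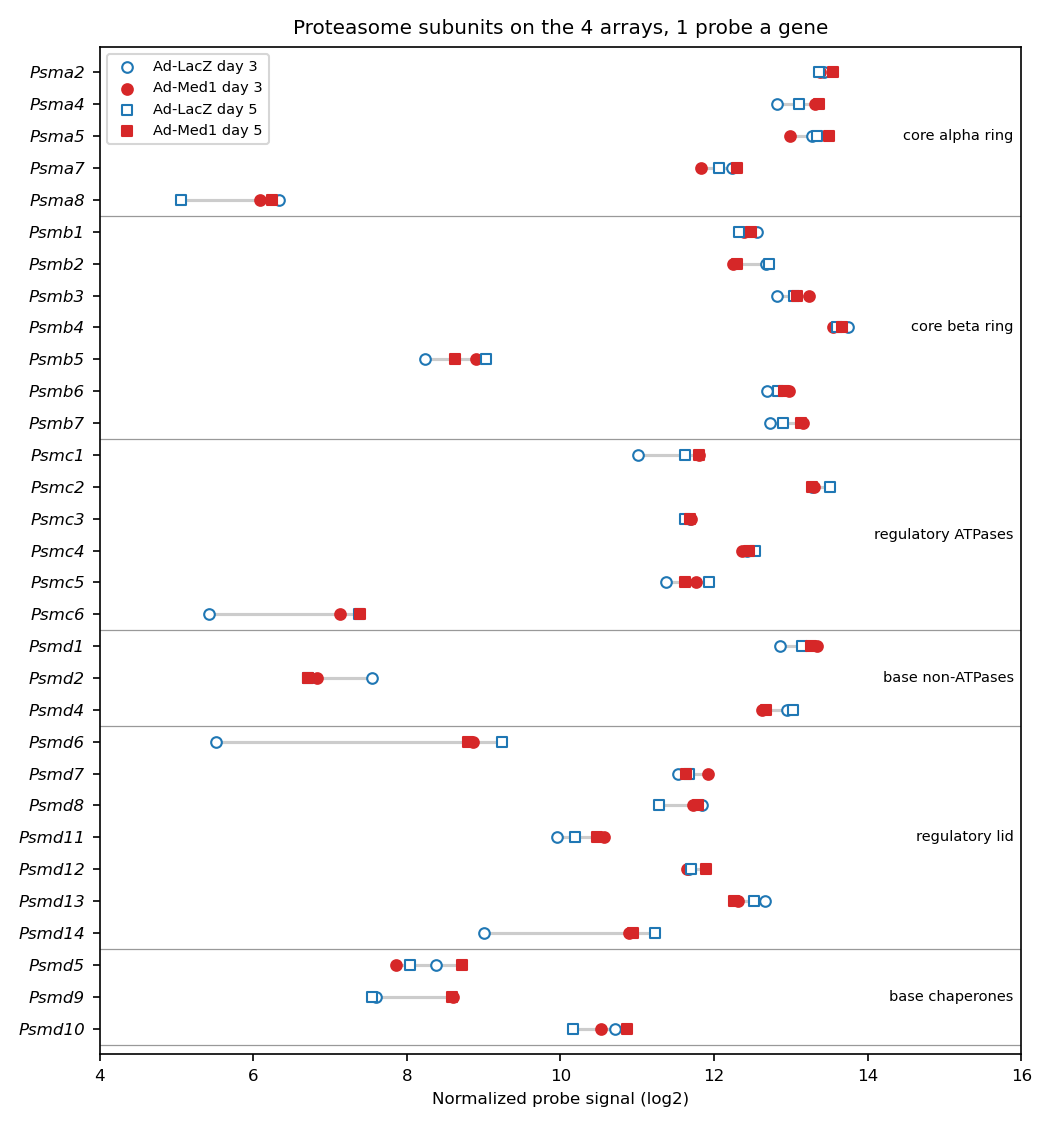
Normalized log2 probe signal (x axis) of the 31 tested proteasome genes (rows, grouped by place in the complex) on each of the 4 arrays; circles are day 3, squares day 5, filled red Ad-Med1 and open blue Ad-LacZ, and each grey line joins the lowest and highest array of a gene. Most genes have their 4 points close together, while the open circle of Psmc6, Psmd6 and Psmd14 (Ad-LacZ day 3) lies far to the left of the rest.

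After quantile normalization, the core particle was close to level on all arrays. At day 3 its 12 tested genes had a median difference of -0.11 and ran from -0.43 to 0.66. At day 5 the median was 0.15 and the values ran from -0.42 to 1.19. One core gene was at least 1.5-fold higher at day 3 (background 25.6% of all genes) and 1 at day 5 (background 22.2%). No core gene was at least 1.5-fold lower on either day, where the backgrounds were 24.2% and 17.3%. With a common median and in the deposited values less each array median, 6 and 9 core genes were higher at day 3. There the median of all genes was itself 1.09 and 0.95. By the mean of the arrays other than Ad-LacZ day 3, 16 of 18 core probes read over 11, against 2609 of 16767 probes. The backgrounds are not matched for brightness, and its part was not tested.

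Among the cutting subunits, Psmb6, which cuts after acidic residues, read 12.69 on Ad-LacZ day 3, 12.98 on Ad-Med1 day 3, 12.84 on Ad-LacZ day 5 and 12.91 on Ad-Med1 day 5. Its virus differences were 0.29 and 0.08, and those of its second probe 0.08 and -0.06. Psmb7, which cuts after basic residues, read 12.73 and 13.16 at day 3 and 12.90 and 13.13 at day 5, in the order Ad-LacZ, Ad-Med1. The probes that stand for these genes read higher with Ad-Med1 by less than 1.5-fold on each day. The 4 probes of Psmb7 disagreed in sign on both days, with differences from -0.06 to 0.43 at day 3 and from -0.46 to 0.23 at day 5.

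Psmb5, which cuts after hydrophobic residues, was the core gene that passed 1.5-fold at day 3. It read 8.24 on Ad-LacZ day 3, 8.90 on Ad-Med1 day 3, 9.03 on Ad-LacZ day 5 and 8.63 on Ad-Med1 day 5. The Ad-LacZ arrays were thus both its lowest and its highest, and the difference was 1.58-fold higher at day 3 and 1.32-fold lower at day 5. Set against the Ad-LacZ day 5 signal, Ad-Med1 day 3 stood at -0.13.

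Of the structural beta subunits, Psmb2 was lower with Ad-Med1 by -0.43 at day 3 and -0.42 at day 5 on its brighter probe. It read 12.67 and 12.71 with Ad-LacZ and 12.24 and 12.29 with Ad-Med1. Its second probe gave -0.29 and -0.06. The fit gave a virus effect of -0.42 ± 0.30 (SE) with an adjusted p of 0.524. Under the other scalings Psmb2 turned above 0 at day 3 (0.37 and 0.61), yet stayed below the median of all genes (-0.72 and -0.34). Psmb1, Psmb3 and Psmb4 lay between -0.20 and 0.42 on both days.

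In the alpha ring, Psma4 was higher on both days, by 0.50 and 0.27. It read 12.81 (day 3) and 13.10 (day 5) with Ad-LacZ, and 13.32 and 13.37 with Ad-Med1. Psma2, Psma5 and Psma7 changed sign between the days and stayed between -0.40 and 0.23. Psma7 had a second probe that differed by -0.73 at day 3 and -0.05 at day 5. Psma8, an alpha subunit of the testis, was detected on Ad-Med1 day 5 alone, at 6.24, while it read 6.09, 6.34 and 5.06 on Ad-Med1 day 3, Ad-LacZ day 3 and Ad-LacZ day 5. Its difference of 1.19 at day 5 therefore set a dim signal against an undetected one, and turned to -0.17 when signals without detection were raised to the dimmest detected signal. The probes of Psma1, Psma3 and Psma6, parts of every alpha ring, and of Psmb11, the cutting subunit of the thymus, were not detected on any array, as were both probes of the lid gene Psmd3; these 5 genes could not be tested.

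The regulatory particle held the widest differences at day 3, where several of its probes read low on the Ad-LacZ array. At that time, 6 of its 19 tested genes were at least 1.5-fold higher with Ad-Med1 (background 25.6%) and 1 at least 1.5-fold lower (background 24.2%). The median was 0.02, and the values ran from -0.71 to 3.35. At day 5, 3 of the 19 were higher (background 22.2%) and none lower (background 17.3%), with a median of 0.01. When Ad-Med1 day 3 was set against Ad-LacZ day 5 instead, 1 regulatory gene was at least 1.5-fold higher (background 21.1%), and when Ad-Med1 day 5 was set against Ad-LacZ day 3, 5 were (background 27%). With undetected signals raised to the dimmest detected one, Psmc6 left the 6, and 5 were higher at day 3. Regulatory minus core, the medians differed by 0.13 at day 3 and by -0.14 at day 5. These values depended on the scaling, since the day 5 gap turned to 0.45 with a common median and to 0.21 in the deposited values less each array median, and the day 3 gap was 0.50 and 0.42. The higher regulatory genes then numbered 15 and 18 at day 3 and 11 and 12 at day 5, with the median of all genes itself at 0.81 to 1.09. Counted by all detected probes in place of 1 a gene, the day 3 gap was 0.39. By place, the lid held 3 and the ATPases 2 of the 6 higher genes at day 3, the base chaperones 1, and the lower gene was a non-ATPase of the base.

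**Figure D2:**
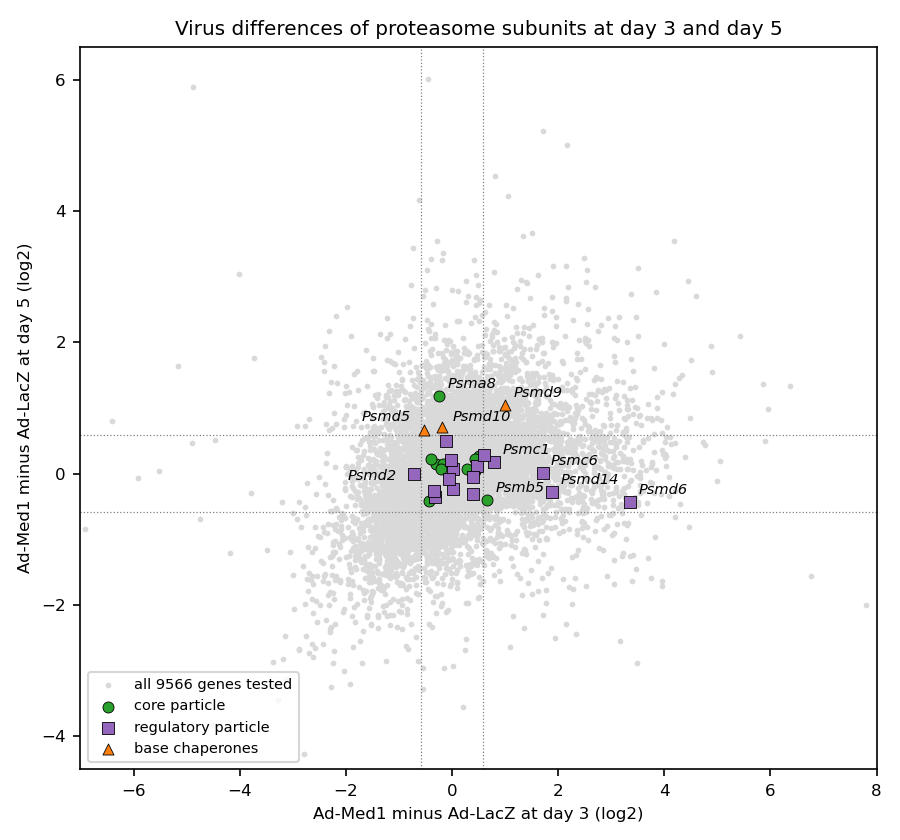
Virus difference (Ad-Med1 minus Ad-LacZ, log2) at day 3 (x axis) against day 5 (y axis) for all 9566 genes tested (grey), core subunits (green circles), regulatory subunits (purple squares) and base chaperones (orange triangles), with dotted lines at 1.5-fold. Core genes lie around the centre, Psmc6, Psmd14 and Psmd6 lie far to the right near 0 at day 5, and Psmd9 alone passes the line on both days.

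Psmd6 and Psmd14 of the lid carried the widest day 3 differences among the probes that stand for a gene, and each of their detected probes showed one. Psmd14, the metalloprotease that cuts ubiquitin chains off the substrate, was dimmest on Ad-LacZ day 3, 1.89 below the next array. It read 10.89 on Ad-Med1 day 3, 10.94 on Ad-Med1 day 5 and 11.23 on Ad-LacZ day 5. Its second probe read 9.28 on Ad-LacZ day 3 against 10.50 to 11.01. On both probes the Ad-LacZ day 3 array was the low one and the remaining arrays overlapped, which made Ad-Med1 3.70-fold and 3.33-fold higher at day 3. At day 5 the probes gave -0.29 and 0.42.

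Psmd6, a scaffold subunit of the lid, was not detected on Ad-LacZ day 3 (5.51) and read 8.86, 8.80 and 9.23 on Ad-Med1 day 3, Ad-Med1 day 5 and Ad-LacZ day 5. It was at least 4.24-fold higher with Ad-Med1 at day 3, and 1.35-fold lower at day 5. Its second probe went the same way, at least 2.24-fold higher at day 3 and 1.21-fold lower at day 5. Against the Ad-LacZ array of the other day, Psmd14 and Psmd6 stood at -0.34 and -0.37 for Ad-Med1 day 3.

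Psmc6, an ATPase of the base ring, read 5.43 on Ad-LacZ day 3, where it was not detected, and 7.13, 7.39 and 7.38 on Ad-Med1 day 3, Ad-Med1 day 5 and Ad-LacZ day 5. It was at least 1.28-fold higher at day 3 and differed by 0.01 at day 5. Its second probe was not detected on any array.

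For 3 further regulatory genes, a low reading on the Ad-LacZ day 3 array was seen in 1 probe while another probe of the same gene did not show it. Psmc2, another ATPase, differed by 0.02 on its brightest probe, whereas probe ILMN_2764737 read 7.24 there against 9.86 to 10.09 elsewhere and was 7.18-fold higher with Ad-Med1. Psmd12, a lid scaffold subunit, differed by -0.03 on its brightest probe, and probe ILMN_1216211 read 7.18 against 9.48 to 9.79, a 6.10-fold difference. Psmd11, a lid subunit that clamps the regulatory particle to the core, was 1.53-fold higher on its brightest probe and at least 5.59-fold higher on ILMN_1214057, which was not detected on that array (6.14). At day 5 these 3 dimmer probes gave -0.12, -0.17 and -0.63.

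In all, 8 of the 32 detected regulatory probes (25.0%) and none of the 18 core probes read over 1 log2 unit below every other array on Ad-LacZ day 3, beside 9.13% of all probes. By their mean on the other 3 arrays, a split chosen after the values were seen, 16 core and 14 regulatory probes read over 11. Of these, no core probe and 1 regulatory probe read low on Ad-LacZ day 3, beside 6.82% of all such probes. Up to 11 stood 2 core probes, none of them low, and 18 regulatory probes, 7 of them low, beside 9.55% of all probes. Core and regulatory probes therefore differ in brightness as well as in particle, and the part of probe brightness, and of the probe's place in the transcript, in these low readings was not tested. Psma8 was the only member probe low on another array alone, Ad-LacZ day 5.

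**Figure D3:**
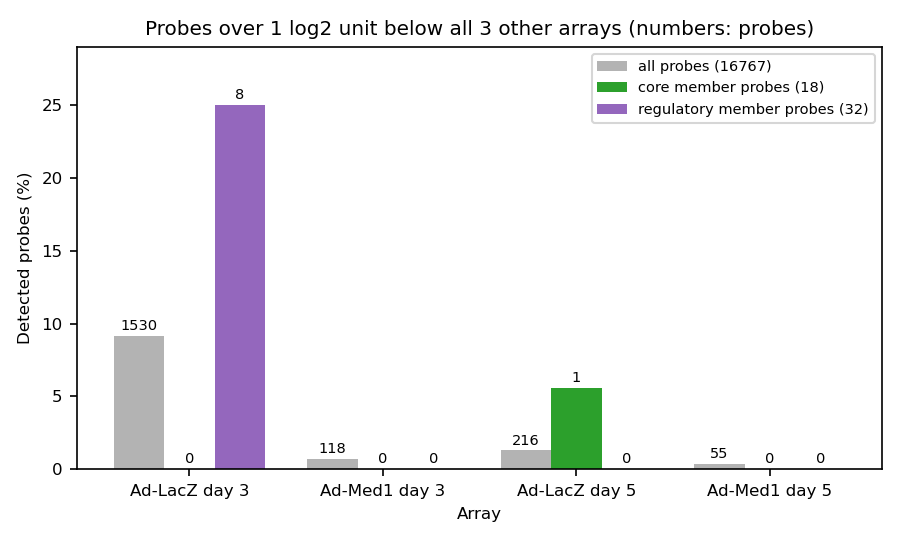
Share of detected probes (y axis, %) that read over 1 log2 unit below all 3 other arrays, for each array (x axis), among all probes (grey), core probes (green) and regulatory probes (purple); the numbers over the bars are probes. Regulatory probes reach 25.0% on Ad-LacZ day 3 (8 of 32), with no core probe among them.

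The other ATPases ranged from level to 1.74-fold higher. Psmc3 and Psmc4 ranged over 0.08 and 0.17 across the 4 arrays, with differences from -0.07 to 0.07. Psmc5 differed by 0.39 at day 3 and -0.30 at day 5. Psmc1, whose product helps to open the gate of the core, read 11.01 on Ad-LacZ day 3, 11.63 on Ad-LacZ day 5 and 11.81 on both Ad-Med1 arrays. It was 1.74-fold higher at day 3 and 1.13-fold higher at day 5, with a virus effect of 0.49 ± 0.34 (SE) and an adjusted p of 0.520 in limma.

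Among the non-ATPases of the base, Psmd1, a scaffold subunit, was higher by 0.48 and 0.12, and its 2 further probes by 0.28 and 0.24 at day 3 but by -0.13 and -0.22 at day 5. Psmd4, a ubiquitin receptor, was lower on both days, by -0.33 and -0.35. It read 12.95 and 13.03 on the Ad-LacZ arrays and 12.62 and 12.68 on the Ad-Med1 arrays. Psmd2, where ubiquitin carriers dock, was 1.64-fold lower at day 3 and level at day 5. It read 7.55 on Ad-LacZ day 3 and 6.71 to 6.83 on the other arrays, and the day 3 difference turned to 0.53 and 0.39 under the other scalings, where it stayed below the median of all genes (-0.56 for each).

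In the rest of the lid, Psmd13 was lower on both days, by -0.34 and -0.26, with Ad-LacZ at 12.66 and 12.52 and Ad-Med1 at 12.32 and 12.26. Psmd4 and Psmd13 turned above 0 at day 3 under the other scalings (0.34 to 0.69) and stayed below the median of all genes there (-0.74 to -0.26). Psmd8 differed by -0.12 and 0.50. Psmd7, the partner of Psmd14, gave 0.39 and -0.05 on its brightest probe. Its other probes gave 0.43 and -0.76 at day 3, and 0.33 and 0.33 at day 5.

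The 3 base chaperones, which help to assemble the ATPase ring and leave the finished particle, were the 3 regulatory genes at least 1.5-fold higher at day 5. Psmd9 was 2.01-fold higher at day 3 and 2.07-fold at day 5, and the only member at least 1.5-fold different one way on both days (background 9.54% higher and 9.4% lower). It read 7.60 (day 3) and 7.54 (day 5) with Ad-LacZ and 8.61 and 8.59 with Ad-Med1. The virus effect was 1.03 ± 0.30 (SE), with an adjusted p of 0.366 in limma. Its second probe ran the opposite way on both days, at -1.80 and -0.84, with 8.41 and 7.58 on the Ad-LacZ arrays and 6.60 and 6.74 on the Ad-Med1 arrays.

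Psmd10, known as gankyrin and raised in liver cancers, showed the same split between probes. Its brightest probe read 10.71 and 10.16 on the Ad-LacZ arrays and 10.53 and 10.87 on the Ad-Med1 arrays, a difference of -0.18 at day 3 and 0.71 at day 5. A second probe was higher on both days, by 0.60 and 0.85, and ILMN_1239384 lower on both, by -0.94 and -0.64. Psmd5 was 1.43-fold lower at day 3 and 1.59-fold higher at day 5, reading 8.38 and 8.04 on the Ad-LacZ arrays and 7.86 and 8.72 on the Ad-Med1 arrays. Against the Ad-LacZ day 3 array, the day 5 values of Psmd10 and Psmd5 were 0.16 and 0.34, while Psmd9 kept 0.99. The particle without these chaperones held no gene at least 1.5-fold higher at day 5.

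**Figure D4:**
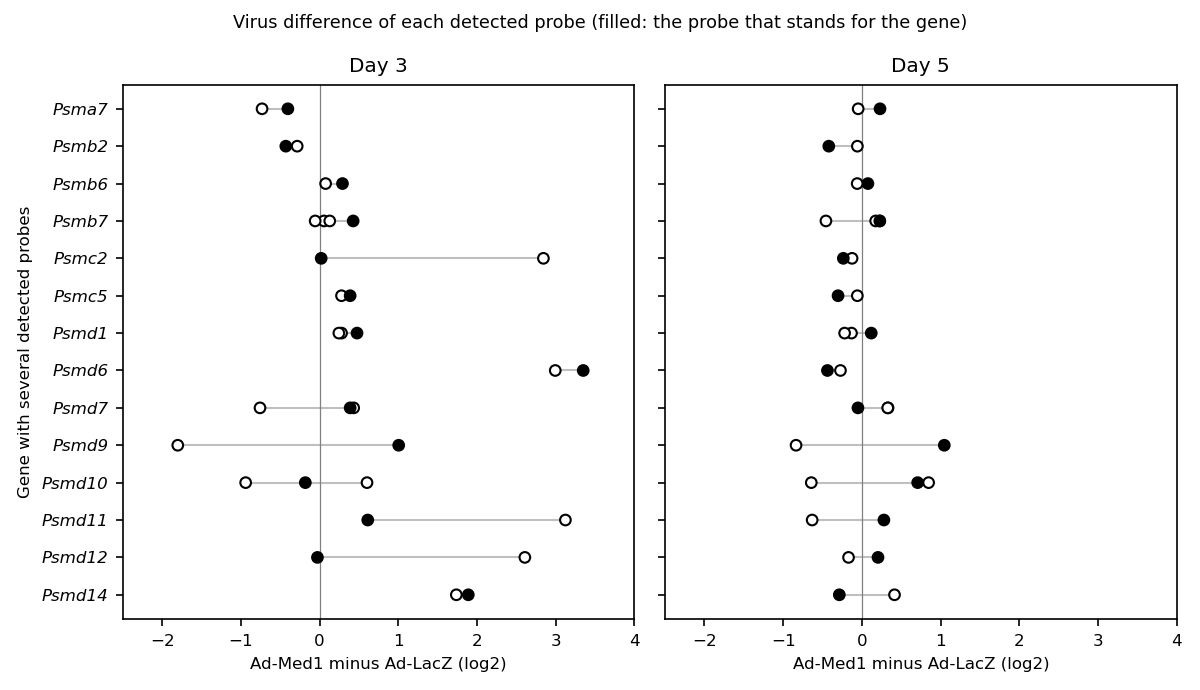
Virus difference (x axis, Ad-Med1 minus Ad-LacZ, log2) of every detected probe of the 14 proteasome genes with several such probes (rows), at day 3 (left) and day 5 (right); filled points are the probes that stand for the gene and grey lines join probes of a gene. At day 3 the probes of Psmc2, Psmd11 and Psmd12 lie over 2.5 log2 units apart, and those of Psmd9 and Psmd10 lie on both sides of 0 on both days.

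Several members were read by more than 1 probe, and these often differed. Of 14 members with several detected probes, 6 (42.9%) had probes over 1 log2 unit apart at day 3, against 42.1% of 3430 such genes (1445). At day 5 there were 2 (14.3%), against 822 of the 3430. All 6 were regulatory genes, of 10, and none of the 4 core genes had such a gap. Probes of a gene lay on opposite sides of 0 in 5 of the 14 at day 3 (42.1% of all such genes) and in 10 at day 5 (39.7%). The median gap of the core genes was 0.27 at day 3 and 0.32 at day 5, and that of the regulatory genes 1.37 and 0.38.

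Time made little difference to the members after Ad-Med1. The arrays of each virus also differed in Eif2s3y, so that time and sex cannot be told apart. Between day 3 and day 5, 30 of the 31 members stayed within 1.5-fold on the Ad-Med1 arrays, against 81.3% of all genes. Psmd5, higher by 0.86, was the exception (background 9.58% higher and 9.15% lower). Between the Ad-LacZ arrays 24 of the 31 stayed within 1.5-fold, against 62.9% of all genes; 5 were higher at day 5 (background 18.7%) and 2 lower (background 18.5%). Psmd14 was higher by 2.23, and the others were Psmb5, Psmc1 and, against undetected day 3 signals, Psmd6 and Psmc6; Psma8 and Psmd2 were the lower ones.

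The constitutive cutting subunits can be set beside their interferon-induced counterparts. Psmb8, Psmb9 and Psmb10 were higher with Ad-Med1 at day 5 by 1.33, 1.11 and 0.82, and at day 3 they differed by 0.00, 0.34 and -1.22. Psmb8 read 12.73 on Ad-Med1 day 5 and 10.71 to 11.40 on the other arrays. Psmb5, Psmb6 and Psmb7, whose places they take, differed by -0.40, 0.08 and 0.23 at day 5. More T and NK cell markers were detected on the Ad-Med1 day 5 array, 7 of 10 with a probe, against 2 to 4 on the other arrays. The sum of their linear signals was 4654 there and 2325 to 3123 elsewhere, and Cd4, Cd8a and Gzmb were undetected on all 4 arrays. The markers did not move as 1: Cd3e read 8.65 on Ad-Med1 day 5 and was undetected elsewhere, Cd8b1, the brightest, read 11.18 there and 11.17 on Ad-Med1 day 3, and Prf1 was lowest there, at 8.63 against 8.93 to 9.90. Their part in the immunoproteasome values was not tested. In whole liver RNA, more cells of a type and more RNA per cell cannot be told apart.

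Other genes that serve the proteasome were read in the same way. Here and for the interferon-induced subunits above, each value is of the brightest probe of a gene. Further probes are not given, although Psmg2, for example, had 3 detected probes. None of those listed for this work passed the limma test at an adjusted p under 0.05, so the following are values. The chaperones that build the core were all lower with Ad-Med1 on both days, as 4 of 4 tested genes: Psmg2 by -1.48 and -0.56, Psmg3 by -0.58 and -0.92, Psmg1 by -0.65 and -0.16, and Pomp, the maturation factor, by -0.34 and -0.09. Their medians were -0.61 and -0.36, beside -0.03 and 0.07 for all genes. None of them was at least 1.5-fold lower on both days (background 9.4%). The share of all genes below 0 on both days was not counted. Under the other scalings 3 or 4 of the 4 turned above 0, and all 4 stayed below the median of all genes, except 1 at day 5 in the deposited values less each array median.

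Psme3, which forms a nuclear activator of the core, was higher on both days, 1.78-fold and 1.73-fold. It read 10.32 and 10.29 with Ad-LacZ and 11.15 and 11.08 with Ad-Med1. Of the activator induced by interferon, Psme1 was higher by 0.07 and 0.79 and Psme2 lower by -1.16 and -0.44. Usp14, a deubiquitinase that binds the base, followed the pattern of Psmd6: it was not detected on Ad-LacZ day 3 (6.11), read up to 9.34 elsewhere, and was at least 5.90-fold higher at day 3 and 1.15-fold higher at day 5. Of 8 tested genes of associated proteins, 5 were at least 1.5-fold higher at day 3 (Usp14, Ecpas, Uchl5, Rad23b and Sem1), beside 25.6% of all genes. At day 5 1 was higher, beside 22.2%, and 1 lower, beside 17.3%. When Ad-Med1 day 3 was set against Ad-LacZ day 5 instead, 1 of the 8 was higher, beside 21.1%. It was Ubqln4 (1.47), which is not among the 5 named. Those stood at 0.34 (Usp14), -0.27 (Ecpas), 0.52 (Uchl5), 0.31 (Rad23b) and -0.13 (Sem1). Ubqln4, a shuttle for ubiquitin-tagged proteins, was 3.49-fold higher at day 5 and 1.39-fold at day 3.

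**Figure D5:**
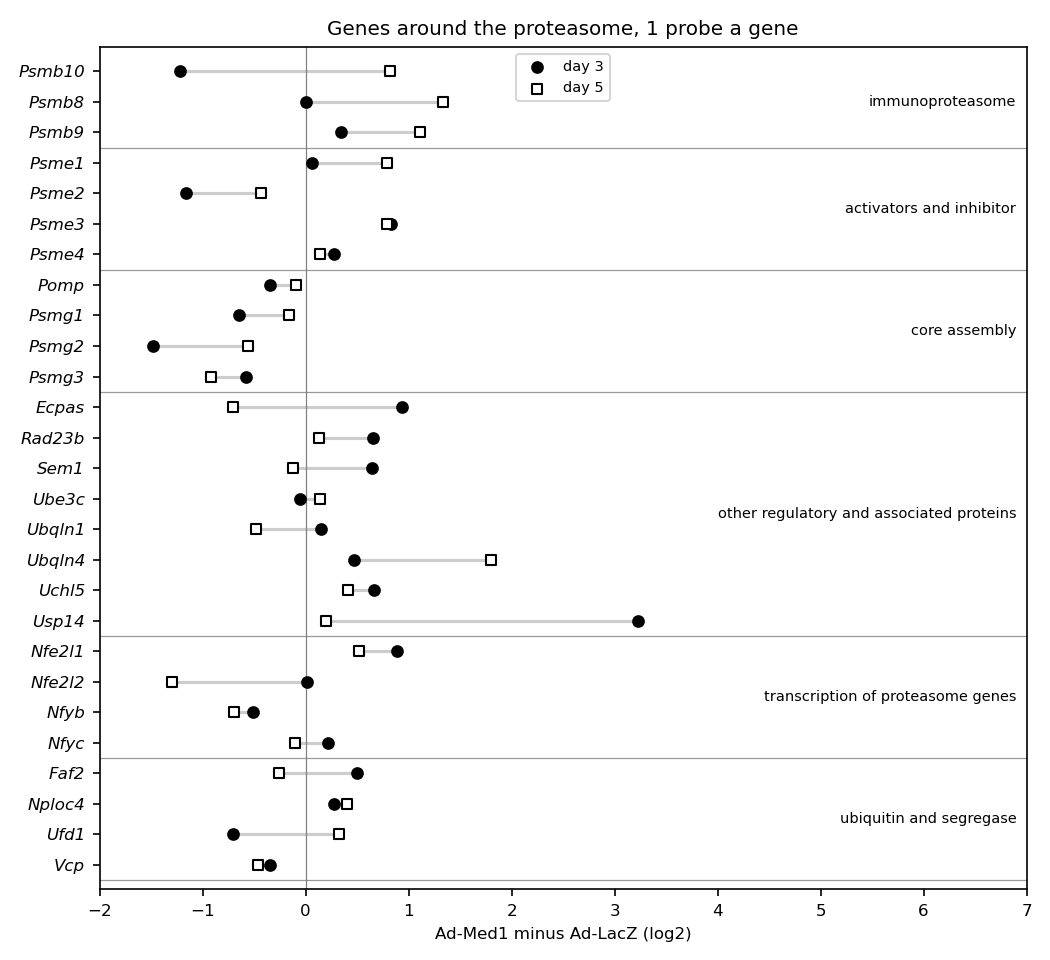
Virus difference (x axis, Ad-Med1 minus Ad-LacZ, log2) at day 3 (filled circles) and day 5 (open squares) of genes that serve the proteasome (rows, grouped by role), 1 probe a gene. The 3 immunoproteasome genes lie to the right at day 5, the 4 core assembly genes lie left of 0 on both days, and Usp14 stands far to the right at day 3 alone.

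Of the transcription factors of proteasome genes, Nfe2l1, which raises subunit genes when the proteasome is impaired, was 1.86-fold higher at day 3 and 1.43-fold at day 5. It read 11.17 and 11.32 on the Ad-LacZ arrays and 12.06 and 11.84 on the Ad-Med1 arrays. Nfe2l2, which acts through the antioxidant response element, was level at day 3 and 2.46-fold lower at day 5, where Ad-LacZ read 9.49 against 8.20 to 8.39 on the other arrays. Of 4 tested genes, the transcription list had medians of 0.11 and -0.40. The 4 tested genes of the Vcp segregase, which extracts tagged proteins, had medians of -0.03 and 0.03, with Vcp itself lower by -0.35 and -0.46. The subunit genes with TGACNNNGC in the promoter, Psmb5, Psmb6, Psmc6, Psmd9 and Psmd12, differed at day 5 by -0.40, 0.08, 0.01, 1.05 and 0.21.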

How the data were processed

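Liver RNA of 4 samples was hybridised to Illumina bead arrays after biotin labelling, per the labels' protocols. Per the file headers, the deposited table holds a linear probe intensity and a detection p-value for each probe and array, not normalized. The authors' deposited series values equal these intensities, with a largest difference of 0. The scanner software is not stated in the sources used. The number of arrays limits the precision.

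neqc of limma 3.58.1 (R 4.3.3) corrected the background from the detection p-values with an offset of 16, normalized quantiles and took log2. Probe names are those of the platform's gene annotation, brought up to date by gene identifier in a GRCm38.p6 table (34807 of 34885 probes with 1 symbol matched; 18 had several symbols and 10378 none). The probe of highest mean signal stood for a gene. Genes detected at p under 0.01 on at least 1 array were tested with lmFit and eBayes, virus and day as terms, with Benjamini-Hochberg adjustment over all 9566 genes. That fit has 1 residual degree of freedom, the difference between the virus effects of the days, so its SE is not a spread between replicates, and p-values hold for these samples only. The fit was also run on simulated data with known effects and the same independent noise level for all genes and arrays. Those data hold no departure of a single array, so that run does not bear on such departures here. Where the dim side was not detected, "at least" folds use whichever is higher, its own signal or that array's dimmest detected probe.

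Genes are named by rule: the cutting subunits, members at least 1.5-fold different on both days, the 5 highest and 5 lowest by mean difference, members undetected on an array or with probes of opposite sign, and surrounding genes past 1.5-fold on both days or 2-fold on 1. Others are named to account for every member. Members and lists were chosen with earlier results of these data known. Python 3.11.15, numpy 2.4.6, pandas 2.3.3 and matplotlib 3.10.9 were used. Alternatives are given in the closing section. Probe sequences were not used here.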

Additional observations from a re-analysis of the deposited data

Results flagged for a closer look

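Several members differed between the viruses by at least 1.5-fold on 1 day and in the opposite direction on the other; with 1 array a group the change between days was not tested. Psmd6 stood at 3.35 at day 3, against an undetected signal (at least 4.24-fold), and at -0.44 at day 5, Psmd14 at 1.89 and -0.29, and Psmb5 at 0.66 and -0.40. The reverse order was seen in Psma8 (-0.25 and 1.19), Psmd5 (-0.52 and 0.67) and Psmd10 (-0.18 and 0.71). Psma8 was detected only on Ad-Med1 day 5.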

How the results depend on the processing

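The values depend on how the arrays are scaled and on which control is used. Without quantile normalization the Ad-Med1 arrays stayed brighter: the median difference of all genes was 1.09 at day 3 and 0.89 at day 5 after scaling to a common median, and 0.95 and 0.81 in the series values less each array median, against -0.03 and 0.07. The share of higher genes among those at least 1.5-fold different went from 51.4% and 56.2% to 96.0% and 92.9%, and to 98.4% and 96.9%. Counts of core subunits at least 1.5-fold higher became 6 and 3 (median scaling) and 9 and 5 (series values) at day 3 and day 5, in place of 1 and 1, and those of regulatory subunits 15 and 11, and 18 and 12, in place of 6 and 3. Less the median of all genes, the core stood at -0.53 and -0.65 with median scaling and at -0.26 at day 5 in the series values, in place of -0.08 and 0.09, and the regulatory particle at 0.26 at day 3 in the series values, in place of 0.05. The regulatory median exceeded that of the core by 0.50 and 0.45 (median scaling) and 0.42 and 0.21 (series values), in place of 0.13 and -0.14. Members called for virus numbered 2 of 1869 genes called with median scaling (Psmd9 and Psmd11) and 18 of 5013 in the series values; no member and no gene was called under the other normalizations and filters. A virus fit with no day term called none, and without Ad-LacZ day 5 it called 413 genes, Psmd6 and Psmd14 among the 2 members; leaving out an array gave 0 to 2 members and 0 to 413 genes, with the lone array of a virus assumed to vary like the other virus. The cause of these changes was not tested.

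With the Ad-LacZ array of the other day as the control, higher regulatory subunits numbered 1 and 5, core subunits 0 at day 5, the particle gap was -0.081 and 0.059, and the regulatory median at day 5 stood 0.24 above that of all genes. Reversed with that control were Psmb5 (-0.13), Psmc6 (-0.25), Psmd14 (-0.34), Psmd6 (-0.37) and Psmd2 (0.12) at day 3 and Psma8 (-0.095) at day 5. Psmd2 also reversed with median scaling (0.53) and in the series values (0.39), Psma8 when undetected signals were raised to the dimmest detected signal (-0.17), which left 0 core subunits higher at day 5, as did detection on all 4 arrays, and Psmd9 at day 3 with the mean of its probes (-0.40), which left 1 regulatory subunit higher at day 5. At 2-fold, 0 core subunits were higher at day 3 and 1 regulatory subunit at day 5. Alternatives added after seeing the data gave 0 regulatory subunits higher at day 5 without the base chaperones, and, over all detected probes, 12 regulatory probes higher at day 3, a regulatory median 0.38 above that of all probes and a particle gap of 0.39. In all, 119 of the 156 recomputed counts and medians moved by less than 0.2 log2 units or 1.5 times. That limit is wider than the main medians, so a change of sign can pass as unmoved. Less that of all genes, the regulatory median at day 3 went from 0.05 to -0.11 with the other Ad-LacZ array. This change lay within the limit, and the tally therefore cannot show that signs held. Of the recomputed values of single genes, 116 stayed within the limit, 66 moved and 10 reversed. No paired analysis was possible because each group has 1 array, with no replicate number to serve as a block; the day term already compares the viruses within days.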
